A study of Mus musculus with 40 samples.

Results

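The pigment cell genes examined here are 10 genes whose products make, shape or regulate the pigment granules of melanocytes and of the retinal pigment epithelium (RPE): *Tyr*, *Tyrp1*, *Dct*, *Pmel*, *Mlana*, *Mitf*, *Slc45a2*, *Oca2*, *Slc24a5* and *Gpr143*. They were chosen by name for that role, and each symbol matched 1 identifier, so that all 10 were found among the 54307 genes of the deposited table. RNA had been sequenced from choroid and retina of 20 mice, which gave 40 libraries and 8 groups of 5. All mice had received 6 laser burns per eye, and the tissue was taken 3 days later; no unlasered group was analysed here. All carried floxed *Tgfbr2* alleles on the C57BL/6J strain, both sexes were used, and all had tamoxifen eye drops for 5 days from an age of 6 to 7 weeks. *Tgfbr2ΔEC* mice carried in addition a tamoxifen-inducible Cre under the endothelial *Cdh5* promoter, and their littermates without Cre were the controls. Groups marked + PLX were fed PLX5622, an inhibitor of the CSF1 receptor that depletes mononuclear phagocytes, from the first tamoxifen dose onward, and those marked - PLX were not. For choroid, the central tissue that held the lesions was used.

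Melanin is made in melanosomes, membrane-bound organelles, from the amino acid tyrosine. Tyrosinase (*Tyr*) carries out the rate-limiting step, TYRP1 and DCT act on later intermediates, PMEL forms the fibrils on which melanin is laid down, and MLANA is a partner of PMEL in the early granule. OCA2, SLC45A2 and SLC24A5 are membrane transporters that set the ionic and pH conditions for the enzyme, and GPR143 is a receptor of the granule membrane that limits its size. MITF is the transcription factor that switches on most of the others. In the posterior eye, pigment is held by the RPE, which derives from the neuroectoderm, and by the choroidal melanocytes, which derive from the neural crest. Both remain with the choroid when the neural retina is lifted off.

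MITF binds E-box sequences, and a longer form with the core TCATGTG is known as the M-box. The 250 bases before the start of the canonical transcript (GRCm39, GENCODE release 39) were searched on both strands for this core, because the levels of the members were correlated across mice. Of 21537 protein-coding promoters of that length, 622 (2.89%) held it, and of the 10 members 5 did. The matches are shown 5′ to 3′ on the coding strand of each gene, with the match in capitals.
Tyr: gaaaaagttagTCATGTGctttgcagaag
Tyrp1: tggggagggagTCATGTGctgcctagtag
Dct: tgcacttagggTCATGTGctaacaaagag
Mlana: acattagaCACATGAtaaaaatactt
Gpr143: atctcgggcatCACATGAagatgtcacag

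The *Tyr* window lies at chr7:87142725-87142753 on the minus strand, with the match 22 to 16 bases before the start, and the *Tyrp1* window at chr4:80752392-80752420 on the plus strand, with the match 39 to 33 bases before it. The *Dct* window lies at chr14:118289792-118289820 on the minus strand, with the match 212 to 206 bases before the start. In *Mlana* (chr19:29674974-29674999, 242 to 236 bases before the start) and in *Gpr143* (chrX:151564628-151564656, 231 to 225 bases before it) the core ran on the opposite strand, where it reads CACATGA. Both of these genes are on the plus strand. The 5 members without a match, all protein-coding and on the plus strand, are *Pmel* (chr10:128540064-128556107), *Mitf* (chr6:97783950-97998323), *Slc45a2* (chr15:11000803-11029319), *Oca2* (chr7:55889191-56186280) and *Slc24a5* (chr2:124909836-124930597). The windows of *Tyrp1* and *Mlana* lie before the canonical start but within the annotated span of the gene, because another transcript begins further upstream. The shorter form CATGTG, which the core contains, was in 10.4% of all promoters and in the same 5 members. CACGTG, the symmetric E-box, was in 6.31% of all promoters and in 0 members, and TAATCC, the core to which OTX2-type factors bind, was in 6.97% and in *Dct* alone among the members. A match describes letters and does not show binding, and the search covered only this window.

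Some libraries held RNA that the tissue name does not account for. A neural retina score, the mean of log2(normalized count + 1) over 10 photoreceptor genes, was 11.26 to 12.84 in the 5 *Tgfbr2ΔEC* - PLX choroids and 7.42 to 10.41 in the control - PLX choroids, so these groups did not overlap. It was 7.02 to 12.74 in control + PLX choroids, where mouse 15 had the second highest value of 20, and 8.59 to 10.18 in *Tgfbr2ΔEC* + PLX choroids. The retina of mouse 1 (control - PLX) held 5856 normalized counts of *Krt5* and 759 of *Krt14*, keratins of surface epithelium, against a median of 2.10 and 0 over all retinas. Among the control - PLX choroids *Krt5* reached 4561 and *Krt14* 2640, against medians of 29.2 and 3.44 over all choroids. A sum over 8 surface epithelium genes reached 17518 in that group. Its highest value was 1752 in *Tgfbr2ΔEC* - PLX, 3738 in control + PLX and 2001 in *Tgfbr2ΔEC* + PLX choroids. Over the 15800 genes above 0 in every library, the median ratio to the geometric mean of that gene over all libraries was 1.01 in each of the 40, so the deposited values were read as scaled over both tissues together. Each library summed to between 22256900 and 25956200 normalized counts, and 1 read was worth about 0.745 to 1.195 normalized counts. *Tgfbr2*, whose deletion by this Cre is directed to endothelium, was 10503 ± 425 (SD, n = 5) in control - PLX and 10176 ± 1077 (SD, n = 5) in *Tgfbr2ΔEC* - PLX choroids, a difference within that spread. These values cover all cells of the tissue and do not measure the deletion in endothelium. The paper reports the deletion from PCR and qPCR of choroid.

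In choroid, all 10 members were abundant. Relative to the length of the canonical transcript, *Dct* was highest at a mean of 25491 normalized counts per kb over 20 choroids, followed by *Tyrp1* at 22816, *Pmel* at 15096 and *Mlana* at 9252. The ranges of *Dct* (20686 to 33253 per kb) and *Tyrp1* (16527 to 27641 per kb) overlapped, although *Dct* was the higher in 19 of the 20 choroids. A gap without overlap separated *Mlana* from *Slc24a5* (2926 per kb), and another separated *Slc24a5* from *Slc45a2* (1320 per kb). *Tyr*, the rate-limiting enzyme, followed at 1073 per kb. Without division by length, the mean of *Tyr* (6483) was above those of *Slc24a5* (6326) and *Slc45a2* (3942). *Oca2* (722), *Mitf* (567) and *Gpr143* (546) were lowest per kb, with overlapping ranges, and *Mitf* was above *Gpr143* in only 9 of 20 choroids. The spread between choroids was narrow for most members, with a coefficient of variation of 11.7% for *Slc24a5* and *Gpr143*, 12.01% for *Dct* and between 13.95% and 16.4% for *Tyr*, *Slc45a2*, *Tyrp1*, *Mlana* and *Pmel*. It was wider for *Oca2* (24.4%) and widest for *Mitf* (28.2%).

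**Figure D1:**
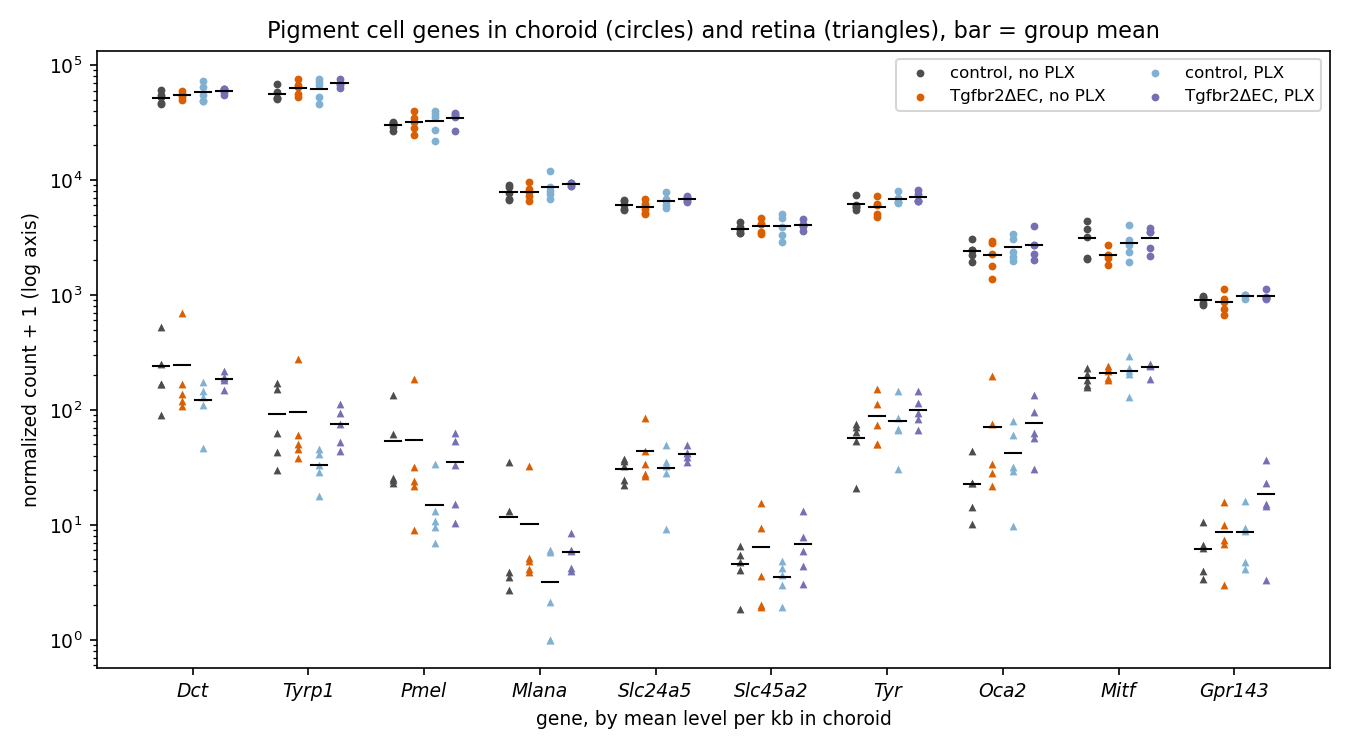
Normalized count + 1 (log axis) of the 10 pigment cell genes in 20 choroids (circles) and 20 retinas (triangles), coloured by group of 5 mice, with a bar at each group mean. For every gene all choroids lie above all retinas, and the gap is smallest for *Mitf*.

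In retina, the same genes were at a small share of those levels. *Dct* had a median of 167 normalized counts (45.9 to 689, n = 20), *Tyrp1* 47.0 (16.9 to 279), *Pmel* 23.3 (5.96 to 185) and *Tyr* 71.8 (19.9 to 150). *Slc24a5* had a median of 34.2 (8.17 to 84.5) and *Oca2* of 31.9 (8.82 to 197). *Mlana*, *Slc45a2* and *Gpr143* were close to the floor of 3 reads, at medians of 3.52, 3.28 and 7.08, and lay at or under it in 6, 7 and 2 of the 20 retinas. *Mitf* stood apart from the rest: at a median of 218 and a range of 128 to 293, its coefficient of variation was 18.3%, while that of the other 9 lay between 42.1% and 140%. *Mitf* was thus the most variable member in choroid and the least variable in retina.

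All 10 members passed the test between the tissues, each with the higher level in choroid, where limma on all 40 libraries called 40.8% of 24317 genes higher in choroid. The differences on the log2(normalized count + 1) scale were 10.70 ± 0.26 (SE) for *Mlana*, 10.26 ± 0.26 for *Pmel*, 10.06 ± 0.19 for *Tyrp1*, 9.78 ± 0.20 for *Slc45a2* and 8.39 ± 0.18 for *Dct*. They were smaller for *Slc24a5* (7.54 ± 0.13), *Gpr143* (6.81 ± 0.21), *Tyr* (6.46 ± 0.15) and *Oca2* (5.96 ± 0.23), and smallest for *Mitf* (3.70 ± 0.10). The largest adjusted p of the 10 was 1.02e-23 (limma, Benjamini-Hochberg). The median over the members was 7.96, against -0.01 over all genes tested. For *Mlana*, *Slc45a2* and *Gpr143* the size depends on the pseudocount because the retinal values are near the floor. In these bulk samples, fewer cells of a type and less RNA per cell cannot be told apart.

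The ratio of the 2 tissues sorted the members. In each mouse, the retinal level was expressed as a percentage of the choroidal level of the same gene. Its median over 20 mice was 8.73% for *Mitf*, 1.29% for *Oca2*, 1.15% for *Tyr*, 0.813% for *Gpr143* and 0.533% for *Slc24a5*. It was 0.279% for *Dct*, 0.0840% for *Slc45a2*, 0.0829% for *Pmel*, 0.0728% for *Tyrp1* and 0.0463% for *Mlana*. In 19 of 20 mice all of *Oca2*, *Tyr*, *Gpr143* and *Slc24a5* were above all of *Slc45a2*, *Pmel*, *Tyrp1* and *Mlana*. In mouse 1, the exception, *Gpr143* and *Slc24a5* were below *Pmel* and *Mlana*. *Mitf* was above all other members in 19 of 20 mice, the exception being mouse 9, where *Oca2* reached 14.2%. The order is a description of these mice, and the grouping was made after the values were seen.

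Genes known from other cells gave the same measure a scale. Of 8 RPE genes, 6 had a median between 1% and 3%, among them *Rpe65*, the retinoid isomerase of the visual cycle, at 1.98% and *Ttr*, which carries retinol, at 2.10%. The other two, *Best1* and *Rrh*, were at 14.8% and 20.8%. *Sox10*, which marks neural crest cells and their melanocyte and Schwann cell descendants, was at 0.625%, though the 8 melanocyte lineage genes spread widely, from *Pax3*, listed at 0, to *Tfap2a* at 416%. Of 6 fibroblast genes 5 were below 0.06%, and *Pdgfra* was at 4.05%. The collagen genes *Col1a1* and *Col3a1*, which fibroblasts make, were at 0.0594% and 0.0472%. The medians of *Oca2* and *Tyr* lay between 1% and 3%, as did those of 6 RPE genes but also of the melanocyte lineage genes *Ednrb* (1.64%), *Erbb3* (2.11%) and *Snai2* (2.20%).

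**Figure D2:**
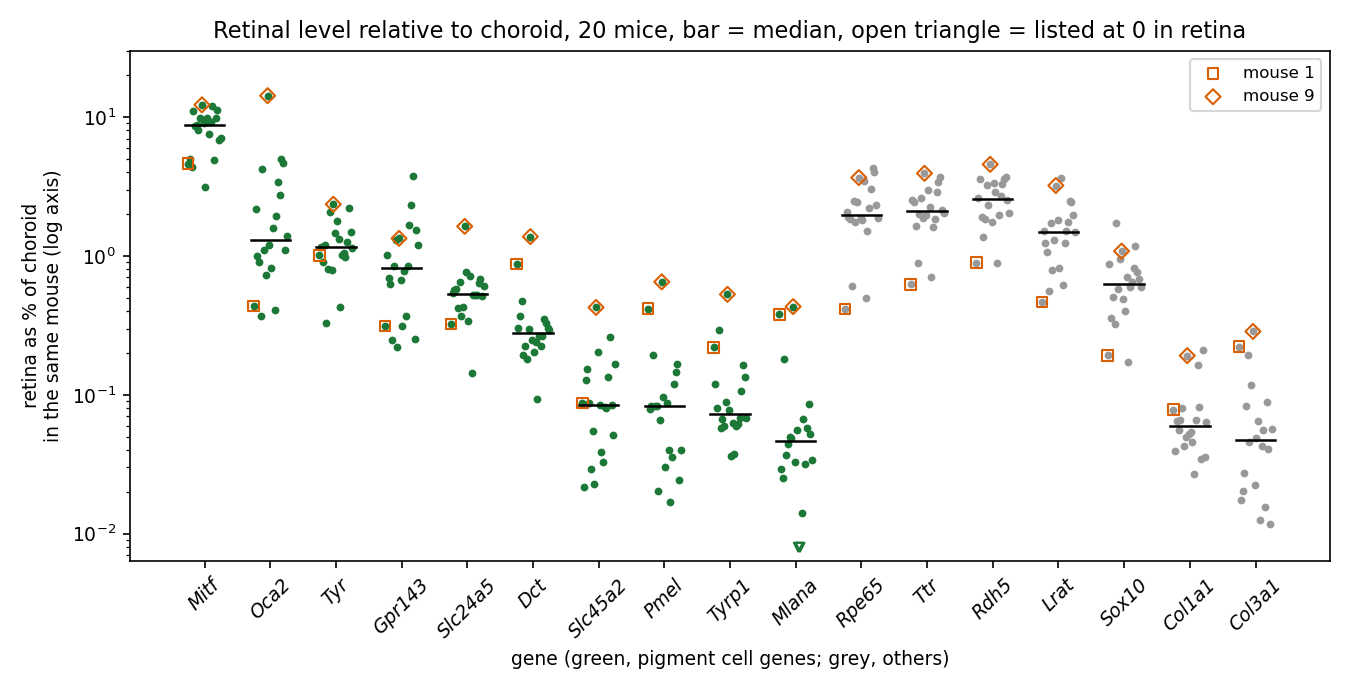
Retinal level as a percentage of the choroidal level in the same mouse (log axis) for the 10 pigment cell genes (green) and for RPE, neural crest and fibroblast genes (grey), 20 mice, with a bar at the median. Open triangles mark values listed at 0. Squares mark mouse 1 and diamonds mouse 9, which is highest for 9 of the 10 members.

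The retinas of mouse 9 (*Tgfbr2ΔEC* - PLX) and mouse 1 (control - PLX) held the most of several members. *Dct* was 689 in the retina of mouse 9 and 526 in that of mouse 1, against 252 in the next retina. *Pmel* was 185 and 133, against 62.4 in the next, and *Mlana* was 31.6 and 34.2, against 12.3. The sum over the 10 members was 1824 in mouse 9 and 1161 in mouse 1, and between 326 and 911 in the other 18 retinas. The sum over 8 RPE genes was 4699 in mouse 9, close to the median of 4532 over the other 18, and 1769 in mouse 1, the second lowest of 20. The sum over 6 fibroblast genes was 1247 in mouse 9, the highest of 20, and 939 in mouse 1, the third highest. The sum over 8 melanocyte lineage genes was 1937 in mouse 1, the highest of 20, and 1598 in mouse 9, below the median of 1638 over the other 18. It does not follow melanocytes alone, since *Tfap2a* and *Mc1r* in it had medians of 416% and 207% of the choroidal level. *Sox10* was at 0.192% in mouse 1 and 1.08% in mouse 9, against a median of 0.625%. A sum over 8 surface epithelium genes was 22258 in mouse 1, 129 in mouse 9 and 72.1 to 216 in the other 18. The part of other tissue in these 2 retinas was not tested. Without these 2 mice, the median retinal percentages were 0.266% for *Dct*, 0.0808% for *Pmel*, 0.0681% for *Tyrp1*, 0.0405% for *Mlana* and 8.73% for *Mitf*, close to those over 20 mice.

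None of the 10 members passed the test for genotype in choroid. Between *Tgfbr2ΔEC* and control mice without PLX, 0 of 10 were called by limma and 0 had an unadjusted p under 0.05, where 0.00423% of 23619 genes were called. That share is a single gene and was not stable, since 303 genes were called in a fit of the 10 mice compared and 411 without mouse 15. With PLX the counts were again 0 of 10 and 0, and 0.00423% of all genes were called. An unadjusted p under 0.05 was held by 9.25% of all genes without PLX and 3.76% with PLX, so counts of 0 among 10 are near that background too. The differences without PLX were between -0.43 and 0.16 on the log2(normalized count + 1) scale, with a median of -0.03, against 0.01 over all genes. The 95% intervals of these differences reached from -0.88 (*Mitf*) to 0.45 (*Tyrp1*) without PLX and from -0.36 (*Oca2*) to 0.61 (*Mitf*) with PLX. The SE was between 0.10 and 0.15 for all members but *Mitf* and *Oca2*, and the 95% intervals of all 10 stayed within a 2-fold change in either direction.

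*Mitf*, the transcription factor, had the largest genotype difference among the members in choroids without PLX. Without PLX its normalized counts in the control choroids were 4399, 3166, 3783, 2078 and 2072 (mice 1 to 5). In *Tgfbr2ΔEC* - PLX choroids they were 2711, 2232, 2203, 1829 and 2096 (mice 6 to 10). Control mice 1 to 3 lay above every *Tgfbr2ΔEC* mouse, while mice 4 and 5 lay below 4 of the 5. With PLX the control values were 4097, 3004, 2714, 2367 and 1942, and the *Tgfbr2ΔEC* values 3791, 2585, 2182, 3520 and 3522, which overlapped over most of their range. The difference was -0.43 ± 0.22 (SE, 95% interval -0.88 to 0.02) without PLX and 0.16 ± 0.22 (-0.30 to 0.61) with PLX, with limma adjusted p-values of 0.586 and 1. The difference of these effects between the diets, -0.59 ± 0.31 (SE), was not called either (limma adjusted p = 0.813), and neither was that of any other member, where 0% of 23619 genes were called.

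The neural retina score moved with the *Mitf* values. Over the 20 choroids *Mitf* had a Pearson r of -0.67 with that score (permutation p = 0.00132, adjusted p over 40 relations 0.00754) and a Spearman coefficient of -0.74 (permutation p = 0.00029, adjusted p = 0.0116). Without the 2 choroids farthest from the median score r was -0.55 (adjusted p = 0.0904, permutation), and with group means subtracted it was -0.57 (adjusted p = 0.110), so the relation did not hold its call within groups or without mice 9 and 11. With the score as a covariate, the genotype difference of *Mitf* without PLX was -0.03 ± 0.23 (SE). The score did not overlap between these 2 groups, so this fit cannot separate it from genotype. With a score of sex-linked genes as a covariate the genotype difference was -0.32 ± 0.17 (SE), and that covariate lowered the SE of *Mitf* from 0.22. The parts of retinal RNA and sex in the *Mitf* difference were not tested.

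The diet comparison in choroid gave the same count. With PLX against without, 0 of 10 members were called in control mice, where 3.75% of all genes were, and 0 of 10 in *Tgfbr2ΔEC* mice, where 4.06% were. At an unadjusted p under 0.05 the counts were 0 and 3, against 13.8% and 15.4% of all genes. The median member difference was 0.12 in control and 0.21 in *Tgfbr2ΔEC* mice, against 0.02 and -0.01 over all genes. In *Tgfbr2ΔEC* mice all 10 estimates were above 0, between 0.04 for *Slc45a2* and 0.47 for *Mitf*. Some other lists had like medians in this comparison, 0.30 for the RPE, 0.27 for the melanocyte lineage, 0.37 for the Schwann cell, 0.20 for the endothelial and 0.18 for the fibroblast genes, while the photoreceptor genes had -2.19. The 26 genes for melanosome assembly and transport and the 9 regulators, both described below, had medians of -0.01 and 0.02. The melanocyte ligands had 0.17, the mast cell genes 1.23 and the surface epithelium genes -1.18. The part of these lists in the member differences was not tested. The difference of *Mitf* was 0.12 once the neural retina score was a covariate and 0.57 with the sex score, where its adjusted limma p was 0.0669. The neural retina score was 11.26 to 12.84 without PLX and 8.59 to 10.18 with PLX in these mice. With no overlap, the fit cannot separate that score from diet.

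*Tyr* and *Slc24a5* had the lowest limma p-values in that comparison. *Tyr* was 6114, 7203, 6190, 4725 and 5026 in *Tgfbr2ΔEC* - PLX choroids and 6606, 6580, 6576, 7563 and 8182 in *Tgfbr2ΔEC* + PLX choroids. Mouse 7 without PLX lay inside the range of the PLX-fed mice, and the other 4 lay below it. The difference was 0.29 ± 0.11 (SE, 95% interval 0.06 to 0.52), with a limma p of 0.0169 and an adjusted p of 0.177, and the two-sided exact permutation test gave p = 0.0794. *Slc24a5* was 5058, 6889, 6164, 5178 and 5609 without PLX and 6541, 6446, 7054, 7325 and 6796 with PLX. Again mouse 7 alone reached the range of the PLX-fed mice. The difference was 0.25 ± 0.10 (SE, 0.05 to 0.45), with an adjusted limma p of 0.182 and an exact permutation p of 0.0397, unadjusted over 80 such tests. With the RPE score as a covariate these differences were 0.18 ± 0.10 (SE) for *Tyr* and 0.15 ± 0.08 (SE) for *Slc24a5*.

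**Figure D3:**
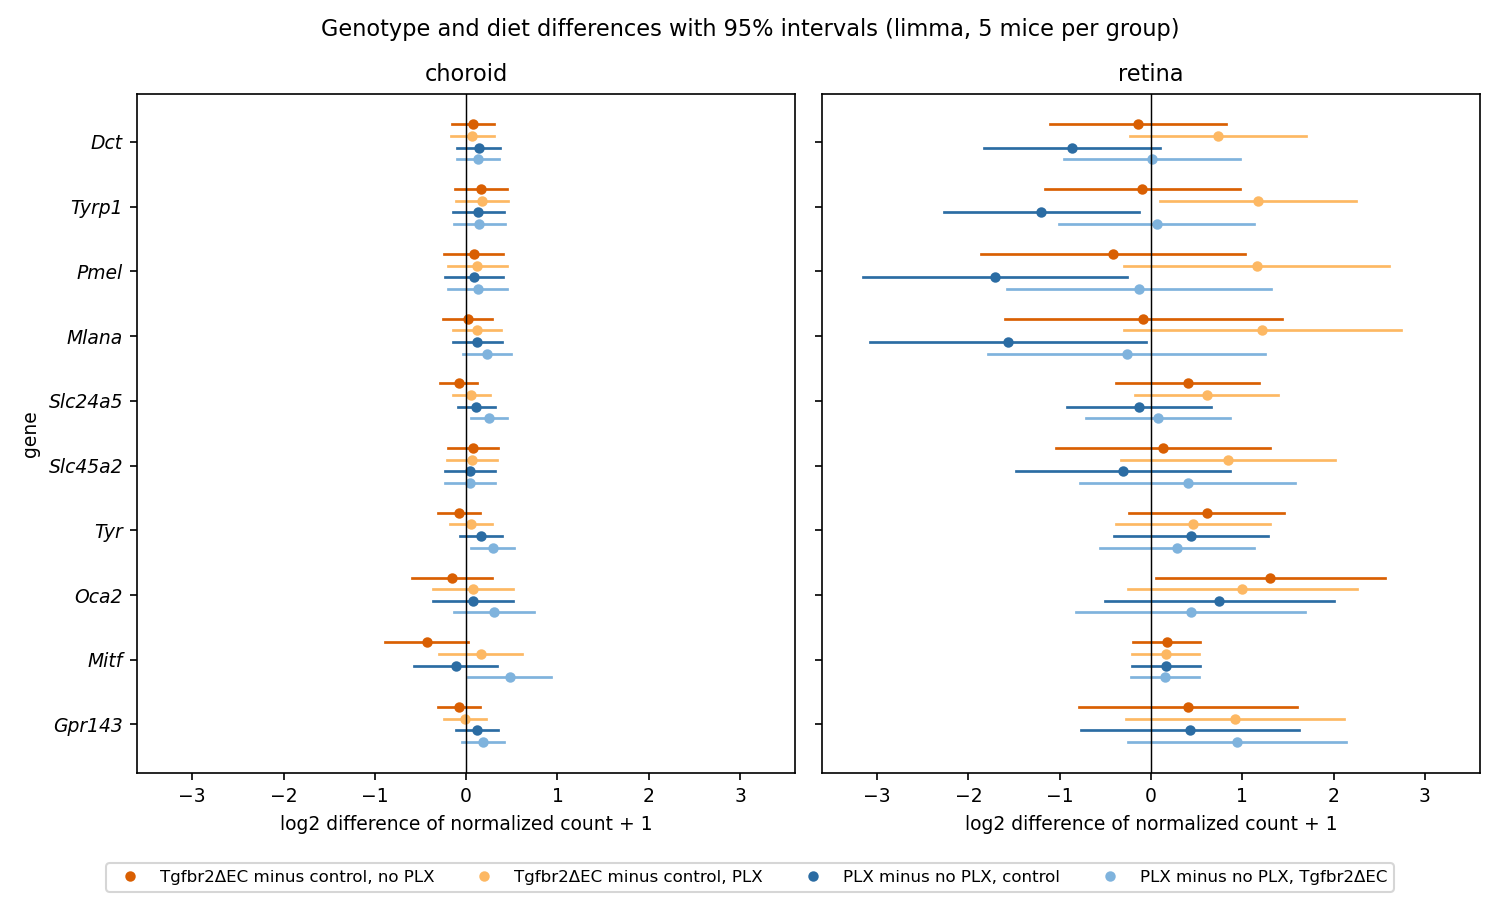
Log2 differences of normalized count + 1 with 95% intervals (limma, 5 mice per group) for genotype at each diet (orange) and diet in each genotype (blue), choroid left and retina right. Choroid intervals reach from -0.88 to 0.93, retina intervals from -3.16 to 2.73, and no difference was called after adjustment.

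In retina 0 of 10 members were called in every comparison. The share of all 23243 genes called was 0% for genotype without PLX, 0% with PLX, 0.736% for PLX in control mice and 0.516% for PLX in *Tgfbr2ΔEC* mice, and 0% for the difference between diets. At an unadjusted p under 0.05 the member counts were 1 (*Oca2*), 1 (*Tyrp1*), 3 (*Tyrp1*, *Pmel* and *Mlana*), 0 and 0 in that order, against 3.26%, 2.71%, 5.74%, 3.95% and 2.44% of all genes. For genotype and diet the SEs were between 0.18 and 0.73, against 0.10 to 0.22 in choroid, and for the difference between diets they reached 1.03 (*Mlana*) in retina and 0.31 (*Mitf*) in choroid. The 95% intervals of *Mitf* lay between -0.22 and 0.54 in the 4 comparisons of genotype and diet, and those of the other 9 members reached as far as -3.16 and 2.73.

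*Pmel*, *Mlana* and *Tyrp1* had the largest estimates for PLX in control mice. *Pmel* was 133, 24.5, 22.03, 61.1 and 23.6 in control - PLX retinas and 12.1, 32.8, 8.66, 5.96 and 9.74 in control + PLX retinas. Mouse 12 with PLX lay above 3 of the mice without PLX, and the others with PLX lay below all 5. The difference was -1.71 ± 0.70 (SE, 95% interval -3.16 to -0.26), with an adjusted limma p of 0.692 and an exact permutation p of 0.0317, unadjusted over 80 such tests. *Tyrp1* was 150, 62.1, 41.7, 170 and 28.95 without PLX and 27.6, 44.5, 16.9, 40.4 and 32.5 with PLX, and its difference was -1.20 ± 0.51 (SE, -2.27 to -0.13). That of *Mlana*, near the floor in most of these retinas, was -1.57 ± 0.73 (SE, -3.08 to -0.05). The exact permutation p was 0.0714 for *Tyrp1* and 0.119 for *Mlana*, also unadjusted. Without mice 1 and 9 the differences were -1.29 for *Pmel*, -0.94 for *Tyrp1* and -0.99 for *Mlana*, with adjusted p-values of 0.969, 0.982 and 1 (limma).

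With PLX, *Tyrp1* and *Dct* were higher in most *Tgfbr2ΔEC* than control retinas. *Tyrp1* was 43.2, 74.2, 111, 92.7 and 51.9 in *Tgfbr2ΔEC* + PLX retinas, and only control mouse 12 overlapped them. *Dct* was 147, 217, 192, 188 and 181 in these retinas and 129, 175, 45.9, 144 and 109 in the control + PLX retinas. The exact permutation p was 0.0159 for each, unadjusted, where 5 against 5 mice allow 0.00794 at the smallest, and limma gave adjusted p-values of 1. All 10 estimates of this comparison were above 0, with a median of 0.88 against -0.00332 over all genes, and the RPE list had a median of 0.66 with 0 of 8 called. The retina of control mouse 13 had the lowest RPE score of 20 (6.47) and the lowest values of *Tyrp1*, *Dct*, *Oca2* and *Slc24a5*. Without it, the differences went from 0.73 to 0.42 for *Dct*, from 1.00 to 0.55 for *Oca2*, from 0.61 to 0.22 for *Slc24a5*, from 0.46 to 0.16 for *Tyr* and from 1.17 to 0.96 for *Tyrp1*. Without mouse 11 the estimate of *Mitf* was -0.01. *Oca2*, the transporter, had the largest estimate for genotype without PLX, 1.31 ± 0.60 (SE). Its values were 13.2, 42.5, 22.2, 22.3 and 9.12 in control and 75.1, 32.7, 20.7, 197 and 27.3 in *Tgfbr2ΔEC* retinas, and without mice 1 and 9 the difference was 0.68.

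**Figure D4:**
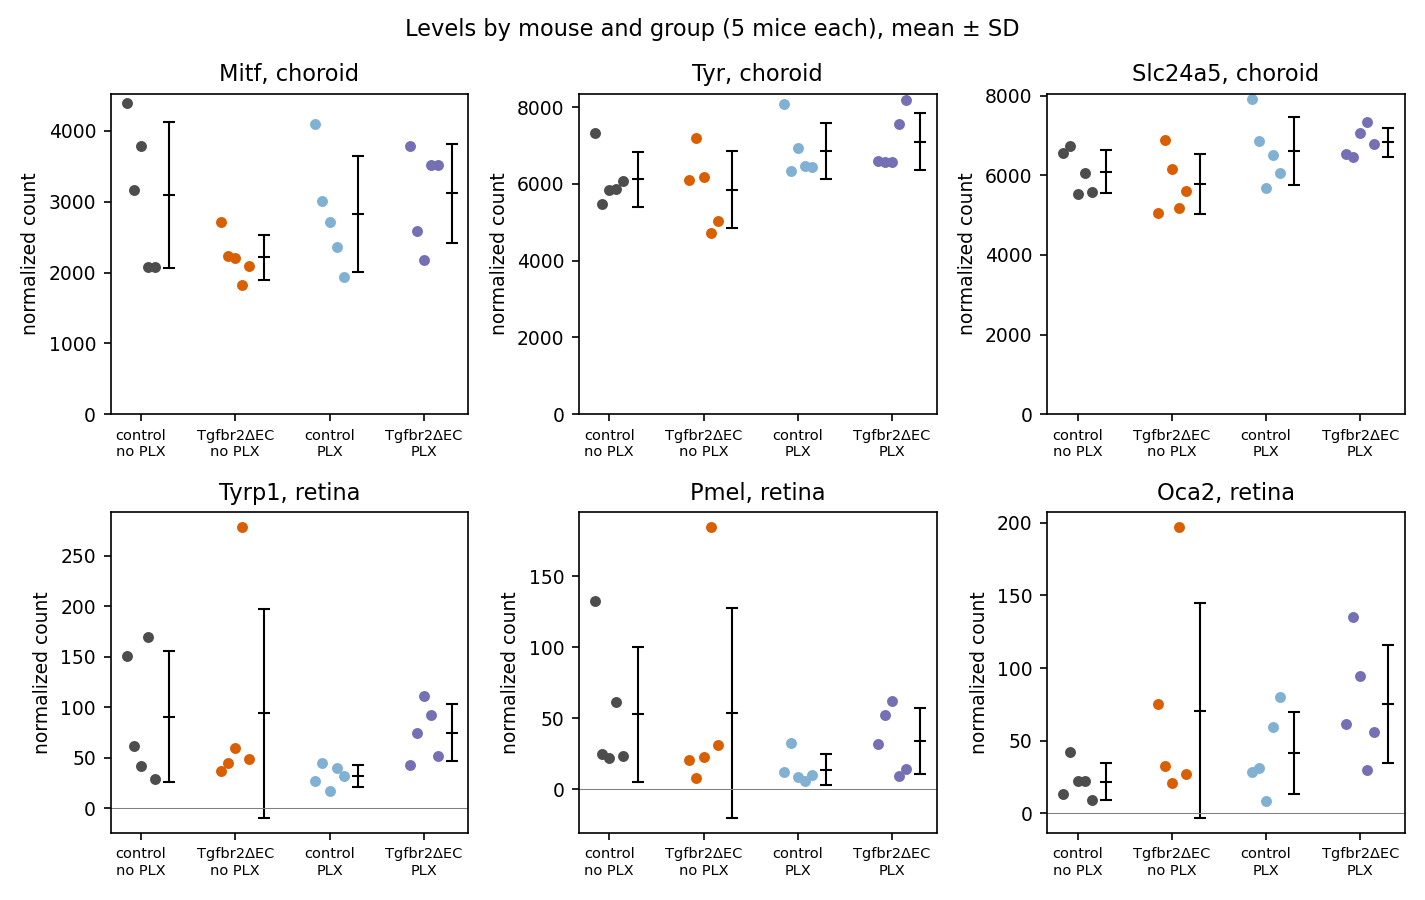
Normalized counts by mouse in the 4 groups of 5, with the mean and SD beside the points, for *Mitf*, *Tyr* and *Slc24a5* in choroid (top) and *Tyrp1*, *Pmel* and *Oca2* in retina (bottom). The groups overlap in every panel, and the *Tyrp1* and *Pmel* values of mice 1 and 4 in control - PLX and of mouse 9 in *Tgfbr2ΔEC* - PLX lie above those of the other mice of their group.

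Across the mice, some members were more closely correlated than others. Over the 20 choroids, Pearson r of the log2 levels was between 0.64 and 0.88 for the 10 pairs among *Tyrp1*, *Dct*, *Pmel*, *Mlana* and *Slc45a2*. For the 6 pairs among *Tyr*, *Oca2*, *Slc24a5* and *Gpr143* it was between 0.59 and 0.76, and for the 20 pairs across it was between 0.26 and 0.77 with a median of 0.49, so that these ranges overlapped. *Slc24a5* was as close to *Pmel* (0.77), *Dct* (0.74) and *Tyrp1* (0.73) as to *Tyr* (0.69), *Gpr143* (0.68) and *Oca2* (0.59). *Mitf*, which regulates many of them, had r between 0.08 and 0.57 with the other 9. In retina the median was 0.73 among the first 5, 0.53 among the other 4 and 0.37 across. Without mice 1 and 9 these medians were 0.48, 0.53 and 0.36, so the higher value among the first 5 was not kept there. The libraries share their scaling and depth, the genes were grouped after the values were seen, and these correlations are given as a description.

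The RPE score, the mean of log2(normalized count + 1) over *Rpe65*, *Best1*, *Lrat*, *Rdh5*, *Rrh*, *Stra6*, *Slc16a8* and *Ttr*, was related to several members. In choroid, Pearson r with this score passed the permutation test, adjusted over 40 relations, for 5 members: *Slc24a5* (r = 0.72, Spearman coefficient 0.65), *Oca2* (0.72, 0.60), *Gpr143* (0.70, 0.69), *Tyr* (0.69, 0.61) and *Mitf* (0.59, 0.58). The adjusted permutation p was 0.00424 for *Slc24a5*, *Oca2* and *Gpr143*, 0.00447 for *Tyr* and 0.0271 for *Mitf*, from unadjusted values of 0.00039, 0.00044, 0.00052, 0.00067 and 0.00678. Spearman's coefficient passed the same test for these 5, with adjusted p-values between 0.0153 (*Gpr143*) and 0.0423 (*Mitf*). For *Tyrp1*, *Mlana*, *Pmel*, *Dct* and *Slc45a2*, r was 0.49, 0.42, 0.40, 0.38 and 0.37, with none called. In retina 4 members passed, *Slc24a5* (r = 0.72), *Oca2* (0.71), *Tyr* (0.61) and *Gpr143* (0.57), while r was 0.29 or below for the other 6, *Mitf* included (0.03). Their adjusted permutation p-values were 0.00424, 0.00424, 0.0252 and 0.0282. By Spearman's coefficient only *Oca2* (0.68, adjusted p = 0.0153) and *Gpr143* (0.57, adjusted p = 0.0423) passed, and *Slc24a5* (0.51, 0.0739) and *Tyr* (0.48, 0.0989) did not. *Tyr* and *Gpr143* also passed with the neural retina score in retina (r = 0.60 and 0.58, adjusted permutation p = 0.0252 and 0.0277). The differences between the r of single members were not tested.

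None of the calls with the RPE score was kept without the 2 libraries farthest from the median score of the tissue, although some r changed little and 18 libraries remained. Without the choroids of mice 9 and 11, r was 0.61 for *Gpr143*, 0.57 for *Slc24a5* and *Oca2*, 0.51 for *Tyr* and 0.43 for *Mitf*, and none was called. Without the retinas of mice 13 and 1, r was 0.64 for *Tyr*, 0.59 for *Oca2*, 0.56 for *Gpr143* and 0.35 for *Slc24a5*, again with none called. With group means subtracted, *Slc24a5*, *Oca2*, *Gpr143* and *Tyr* kept their call in choroid, where *Tyrp1* gained one, and in retina *Oca2* and *Slc24a5* kept it. Without mice 1 and 9, 4 members were called in each tissue. *Mitf* (r = 0.44) lost its call in choroid. In retina *Slc24a5* (r = 0.77), *Oca2* (0.73) and *Tyr* (0.70) kept it, *Gpr143* (0.52, adjusted permutation p = 0.0797) lost it and *Dct* gained one (0.67, adjusted permutation p = 0.0332, Spearman coefficient 0.35). *Tyr* alone then passed with the neural retina score in retina (r = 0.76).

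**Figure D5:**
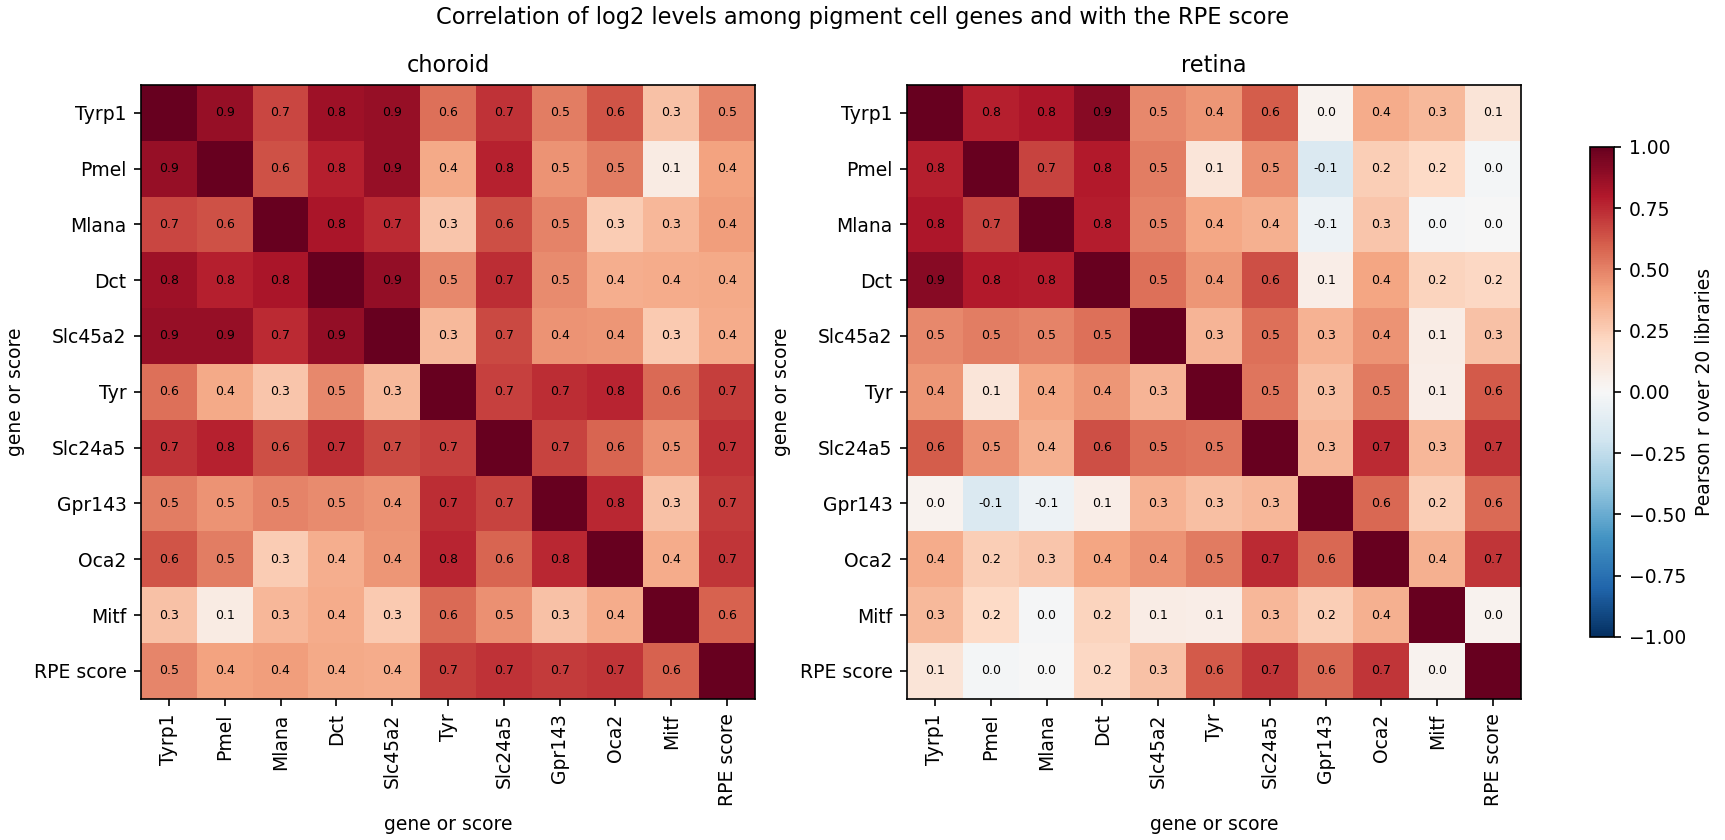
Pearson r over 20 libraries between the log2 levels of the 10 pigment cell genes and with the RPE score, choroid left and retina right. Pairs among *Tyrp1*, *Pmel*, *Mlana*, *Dct* and *Slc45a2* have the highest medians in both tissues, and the RPE score row is darkest at *Tyr*, *Slc24a5*, *Gpr143* and *Oca2*.

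Other genes of the pigment pathway were taken from lists. Of 26 genes for melanosome assembly and transport, 18 were called higher and 6 lower in choroid than in retina, where 40.8% of all genes were called higher and 41.1% lower, with a median of 0.70, far from the 7.96 of the members. *Rab27a* and *Mlph*, which tie melanosomes to the motor myosin Va, and *Rab38*, which sends enzymes to the granule, had the lowest p-values there, with differences of 4.03, 9.02 and 5.69. For genotype 0 of the 26 were called in either tissue, which is the background of 0.00423% in choroid and 0% in retina, and their estimates reached from -0.57 to 0.52, both in retina without PLX. *Rab32*, a small GTPase of melanosome and lysosome trafficking that immune cells also express, fell in PLX-fed choroids by 0.67 in control and by 0.38 in *Tgfbr2ΔEC* mice (limma, adjusted p = 5.76e-06 and 0.00521), and it was the only one of the 26 called for diet in either tissue. A count of 1 of 26 is near the background of 3.75% and 4.06% of all choroid genes.

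Of 9 regulators related to MITF or to RPE and melanocyte identity, 5 were higher and 3 lower in choroid than in retina, against the same background of 40.8% and 41.1%, and *Otx2*, which is active in both, differed by -0.08 and was not called. *Tfec*, a close relative of MITF, fell with PLX in choroid by 1.16 in control and by 1.66 in *Tgfbr2ΔEC* mice (limma, adjusted p = 0.0176 and 0.000623). *Pax6*, a factor of retinal neurons and of the early eye, fell with PLX by 2.76 in *Tgfbr2ΔEC* choroids (limma, adjusted p = 0.0231). All 10 photoreceptor genes of the neural retina score differed the same way at an unadjusted p under 0.05, where 15.4% of all genes had one, with a median of -2.19 and 0 called, and their part in the *Pax6* difference was not tested. Of the 9 regulators, 1 was called lower with PLX in control choroids and 2 in *Tgfbr2ΔEC* choroids. Of 12 phagocyte genes, 11 were called lower with PLX in choroid in each genotype, in the same comparisons as *Tfec* and *Rab32*. Among all genes, 3.75% were called in either direction in control and 4.06% in *Tgfbr2ΔEC* choroids.

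Of 8 melanocyte lineage genes, 6 were higher in choroid, where 40.8% of all genes were. *Pax3*, a neural crest factor, was listed at 0 in all 20 retinas, *Sox10* was higher in choroid by 7.32 and *Kit*, the receptor for the melanocyte growth factor KITL, by 2.53. *Mc1r*, the melanocortin receptor, was lower in choroid by 0.99 on the same log2 scale, the opposite direction to the members. *Erbb3*, a receptor of the neural crest lineage, rose by 0.42 with PLX in *Tgfbr2ΔEC* choroids (limma, adjusted p = 0.0258) and was the only one of the 8 called for genotype or diet in either tissue, where 4.06% of all genes were called in that comparison. *Kit* differed by 0.54 in that comparison (adjusted p = 0.0838). Of 5 melanocyte ligands 4 were tested, and 0 of them were called for genotype or diet. *Best1* and *Rpe65* were among 8 RPE genes of which 8 were higher in choroid and 0 were called for genotype or diet. The shares of all genes called were at most 4.06% in choroid and 0.736% in retina, so counts of 0 among 4 and 8 genes are near the background.

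The genes most like the members were found by the Pearson r of their log2 level with the mean z score of the 10 members. In choroid, over 17587 other genes with a mean of at least 10, these were *Lbh* (0.83), *Tvp23b* (0.82), *Ggact* (0.81), *S100b* (0.81) and *Mgll* (0.81). In retina, over 17173 genes, they were *Fgfr2* (0.84), *A730061H03Rik* (0.79), *Wls* (0.77), *Slc26a7* (0.76) and *Car12* (0.74). *S100b* is a calcium-binding protein of glia and pigment cells, *Fgfr2* a receptor for fibroblast growth factors, *Wls* a carrier of Wnt ligands and *Car12* a carbonic anhydrase. The 2 lists share no gene. Without mice 1 and 9 the r of these 5 genes was between 0.77 and 0.91 in choroid and between 0.70 and 0.86 in retina.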

How the data were processed

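Per the submitters' processing notes, the authors used FastQC 0.11.5, Salmon 1.10.1 with mouse GRCm39, and DESeq2 1.36.0 on stranded, single-read libraries of polyadenylated RNA, with tximport between the last 2 tools. The deposited signal values are these normalized counts per gene, which are not whole numbers. Only 46.05% to 72.4% of low values came within 0.1 of a read number. No count test was therefore run, and the depth, 20940400 to 30421600 reads per library, is approximate. The floor of 3 reads covers counting error only. All 40 columns were matched to a sample, and 53700 of 54307 identifiers to GENCODE release 39 of GRCm39, a later release than the authors' own. *Dct*, *Pmel*, *Mitf*, *Oca2* and *Slc24a5* overlap genes on the opposite strand, and the strand setting of the quantification was not given in the sources used here.

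The members and all gene lists were chosen with earlier results of these data known, and the surface epithelium list and the leaving out of mice 1 and 9 were added after the values were seen. The test was limma 3.58.1 (R 4.3.3), run with its trend option on log2(normalized count + 1). Genes averaging 1 normalized count or more entered, with the 4 groups of a tissue in one fit and Benjamini-Hochberg adjustment over all genes at 0.05. Changes of low genes are understated on this scale. The tissue contrast averaged the 4 groups over 40 libraries. Both tissues of a mouse carry its number in the library names, and the median correlation of their deviations from group means was 0.13 over 20 pairs (-0.16 to 0.29, 12 above 0.1). Single members were compared by two-sided exact permutation tests, and correlations by 100000 permutations with adjustment over 40 relations (10 members, 2 scores, 2 tissues). Named genes are the 10 members, 10 genes set by name, the called genes of each list with the lowest p and the 5 genes most like the members per tissue. *Krt5*, *Krt14*, *Ednrb*, *Snai2*, the collagens and the phagocyte counts were named after their values were seen. The authors' covariates (sex and a neuronal percentage) were replaced by scores from marker genes as alternatives. The remaining alternatives changed the pseudocount (0.5 or 5), the minimum mean, the scaling, the variance estimate (robust) or the mice in the fit (10 only, or all but 1). Other software was scipy 1.17.1, pandas 2.3.3 and numpy 2.4.6 under Python 3.11.15. The values of 1 gene used in a marker score are not reported here.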

Additional observations from a re-analysis of the deposited data

Results flagged for a closer look

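Of 80 sets of 5 mice (10 members, 4 groups, 2 tissues), 9 held a mouse beyond Dixon's 95% critical value. The measure was its gap to the nearest neighbour as a share of the range of the 5 values. Chance gives about 4 if the sets are independent and the values normal. The members were correlated across libraries and the counts were used without a log, so 9 against 4 is not read as an excess. Of these 9, 4 were the retina of mouse 9 (*Tgfbr2ΔEC* - PLX), with gap shares of 0.956 for *Mlana* (31.6 normalized counts against 2.88 to 4.15 in the other 4), 0.906 for *Tyrp1* (279 against 37.3 to 59.9), 0.898 for *Dct* (689 against 108 to 167) and 0.870 for *Pmel* (185 against 8.01 to 30.9). In retina, *Pmel* of mouse 12 was high in control + PLX (0.773, 32.8 against 5.96 to 12.1), and *Mitf* of mouse 16 was low in *Tgfbr2ΔEC* + PLX (0.813, 185 against 240 to 252). In choroid, *Gpr143* was high in mouse 20 (0.827, 1136 against 914 to 952) and low in mouse 15 (0.761, 914 against 985 to 1008), and *Pmel* was low in mouse 16 (0.751, 26667 against 35512 to 38454). The cause of each was not tested. No member had a genotype effect that differed between the diets past the threshold.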

How the results depend on the processing

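Under every alternative run, 0 members were called for genotype, diet or their difference in either tissue, with a lowest adjusted limma p of 0.0619 (choroid, PLX in *Tgfbr2ΔEC* mice) and 10 of 10 were called between the tissues. A minimum mean of 10 left *Mlana*, *Slc45a2* and *Gpr143* out of the retina tests. With the mouse as a replicate block the tissue contrast again called 10 of 10, and the block changed no other call because the groups compared within a tissue share no mouse. Among 3555 single-member values recomputed, 167 changed sign while called in neither fit, and none reversed a call. The correlation counts were less stable. Without the 2 libraries farthest from the median score, the members correlated with the RPE score went from 5 to 0 in choroid and from 4 to 0 in retina, and those correlated with the neural retina score from 1 to 0 and from 2 to 0. With group means subtracted, the RPE count in retina was 2 and the neural retina counts were 0 and 0. Without mice 1 and 9, chosen after the data were seen, the neural retina count in retina was 1. Leaving out those libraries also leaves 18 for each test. Among all genes, the genotype count in choroid without PLX was 1, 303 in a fit of the 10 mice compared, 411 without mouse 15 and 0 to 2 under the other alternatives. Groups of 5 mice limit the differences that can be called, and in retina *Mlana*, *Slc45a2* and *Gpr143* were near the floor. *Pmel* and *Oca2*, with 0 of 20 retinas at or under the floor, also had wide SEs there (0.70 and 0.60).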

Other observations

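The sex of the mice is not in the labels, and 11 choroids held more *Xist* than *Ddx3y* while 9 held the reverse. *Mitf* was 1942 to 3522 normalized counts in the 11 (median 2203) and 1829 to 4399 in the 9 (median 3166). Within control - PLX the 3 choroids with Y-linked transcripts had 3166 to 4399 and the 2 with *Xist* 2072 and 2078, and within control + PLX the 3 had 2714 to 4097 and the 2 had 1942 and 2367. In *Tgfbr2ΔEC* - PLX the ranges overlapped, at 1829 to 2711 and 2096 to 2232. In *Tgfbr2ΔEC* + PLX the single choroid with Y-linked transcripts had 3791 and the 4 others 2182 to 3522. Of the other members, *Mlana*, *Slc24a5* and *Gpr143* also had the higher median in the 9, while *Tyr*, *Tyrp1*, *Dct*, *Pmel*, *Slc45a2* and *Oca2* had it in the 11 (*Tyrp1* 67470 against 55459, *Pmel* 35218 against 28436, *Oca2* 2694 against 2148), all with overlapping ranges. These sets were defined from the data, differ in size between the groups and were not tested.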
